A study of Homo sapiens with 12 samples.

Results

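The genes described here make cholesterol and fatty acids. They are 31 in all: 8 enzymes of the mevalonate pathway, 11 enzymes that carry farnesyl diphosphate to squalene and on to cholesterol, 6 genes of the SREBP control system and sterol transport, and 6 enzymes that make fatty acids. They were chosen by name, as the genes of the deposited expression table whose symbol was on the list, out of 27514 genes listed. All 31 had a mean of at least 1 CPM (reads of a gene scaled to a common library size) over the 12 samples, as had 12680 genes of the table, and only those 12680 were tested.

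RNA sequencing was carried out on total RNA from IMR32, a human neuroblastoma cell line with an amplified MYCN gene, 72 h after electroporation (Nucleofector) with small interfering RNAs (siRNAs). The 4 groups of 3 samples received the control siRNA siCTR (written siCtrl below), siMYCN_2 against MYCN (siMYCN), siHAND2_3 against HAND2 (siHAND2), or the mixture labelled siM2+siH2_3 (siMYCN+siHAND2, the combined knockdown). MYCN is a MYC-family transcription factor and HAND2 a basic helix-loop-helix factor of the sympathetic lineage, and the series was set up to find the genes that each of them regulates. Every group, the controls included, was electroporated with an siRNA and kept in the same medium with fetal calf serum. The labels name 1 siRNA per target, so effects of the siRNA on other transcripts cannot be told apart from loss of the target. Nothing says that the samples of a group came from separate cultures, so p-values measure only the spread between these samples, which may be technical.

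Cells build cholesterol from acetyl-CoA. The mevalonate enzymes join acetyl units and turn them into isoprenoid diphosphates, squalene synthase joins a pair of farnesyl diphosphates, and the later enzymes close the rings and trim the sterol. The genes of both lipid pathways are switched on by the transcription factors SREBP1 and SREBP2, which SCAP escorts out of the endoplasmic reticulum when sterols are scarce and which INSIG proteins hold back when sterols are plentiful. INSIG1 is itself an SREBP target, so its transcript is often read alongside the enzymes.

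The promoters of these genes are shown because the same short boxes recur in them, next to the members whose levels are given later. RefSeq promoters (GRCh38.p14; 250 bases before to 50 after a start) were found for 27 of the 31 genes, 39 promoters in all, and 38 of them were placed on hg19 by an exact match. ACAT2, FASN, FDFT1 and SQLE had no entry. CCAAT, the box bound by NF-Y, stood on either strand (ATTGG on the other) in 25 of the 39 promoters, 64.1%, against 34.6% of all 35116 promoters of that length. The stretches below run 5′ to 3′ on the gene's strand with hg19 coordinates, and capitals mark the motifs found.

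MVK (chr12:110011374-110011572, + strand): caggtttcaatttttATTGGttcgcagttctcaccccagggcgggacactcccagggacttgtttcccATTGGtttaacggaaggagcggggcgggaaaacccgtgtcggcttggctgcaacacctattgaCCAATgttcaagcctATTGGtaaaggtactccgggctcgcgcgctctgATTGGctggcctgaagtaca
FDPS (chr1:155278466-155278625, + strand): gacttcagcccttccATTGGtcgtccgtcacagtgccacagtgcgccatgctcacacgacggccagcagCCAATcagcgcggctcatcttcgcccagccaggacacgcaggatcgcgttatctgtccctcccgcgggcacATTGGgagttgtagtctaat
MSMO1 (chr4:166248621-166248806, + strand): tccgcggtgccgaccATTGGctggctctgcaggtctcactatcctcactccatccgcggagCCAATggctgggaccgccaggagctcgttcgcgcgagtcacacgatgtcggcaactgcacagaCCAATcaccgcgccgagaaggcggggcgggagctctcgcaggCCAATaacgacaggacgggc
EBP (chrX:48379990-48380185, + strand): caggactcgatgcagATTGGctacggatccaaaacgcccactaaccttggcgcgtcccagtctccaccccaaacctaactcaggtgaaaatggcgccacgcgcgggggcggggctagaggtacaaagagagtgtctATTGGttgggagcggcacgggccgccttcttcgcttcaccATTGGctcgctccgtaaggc
INSIG1 (chr7:155089403-155089553, + strand): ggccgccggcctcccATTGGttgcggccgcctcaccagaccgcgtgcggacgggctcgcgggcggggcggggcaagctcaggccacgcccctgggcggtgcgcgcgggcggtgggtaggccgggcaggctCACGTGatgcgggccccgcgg
SREBF2 (chr22:42228961-42229022, + strand): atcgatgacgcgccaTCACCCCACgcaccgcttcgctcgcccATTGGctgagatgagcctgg
SCD (chr10:102106746-102106823, + strand): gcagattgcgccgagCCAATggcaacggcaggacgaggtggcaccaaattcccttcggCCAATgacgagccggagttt
TM7SF2 (chr11:64879255-64879289, + strand): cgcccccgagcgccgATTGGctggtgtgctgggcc

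The first 4 belong to sterol enzymes with several CCAAT boxes, INSIG1 carries a CCAAT box on the other strand and the E-box CACGTG, and SREBF2 carries the sterol regulatory element core TCACNCCAC (here TCACCCCAC) beside a CCAAT box. SCD makes monounsaturated fatty acids, and TM7SF2 is the sterol enzyme whose transcript moved against the others. CACGTG, the E-box known to be bound by MYC proteins, stood in 5 of the 39 promoters (12.8%; INSIG1, LSS, SC5D and SCAP) against 7.3% of all. CAGATG, an E-box of the kind bound by HAND2 with its partners, stood on either strand in 3 (7.7%; CYP51A1, GGPS1 and LSS) against 14.7%, and TCACNCCAC in 1 (2.6%, SREBF2) against 1.1%. None of the 4 motifs contains another. A match describes these letters and windows only.

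The knockdowns were seen in the targeted transcripts first. MYCN stood at 964, 1049 and 1015 CPM in siCtrl, 671, 666 and 708 with siMYCN, 899, 844 and 802 with siHAND2, and 554, 458 and 433 with both siRNAs. HAND2 stood at 224, 241 and 254 CPM in siCtrl, 324, 319 and 334 with siMYCN, 54.3, 64.9 and 67.7 with siHAND2, and 86.3, 67.1 and 67.2 with both siRNAs. Each siRNA lowered its target, MYCN by less than HAND2, and HAND2 was higher in siMYCN than in siCtrl (log2 fold change 0.44 ± 0.12 SE, limma adjusted p = 0.0062). In the deposited values MYCN fell by 0.57 on the log2 scale in siMYCN and by 1.07 in the combined knockdown. Its value in siHAND2, -0.25, did not pass (limma adjusted p = 0.086). Of the adrenergic neuroblastoma markers, GATA3 stood at 29.1 to 35.1 CPM in the siCtrl samples. DBH and TH, enzymes of catecholamine synthesis, stood at 2.37 to 3.07 and 0.0686 to 0.209 CPM there. Of the 4 blood cell genes, HBB and CD3E were listed at the constant of the table in every sample. The other blood cell genes, PTPRC and CD68, stood at 0.0276 to 0.0686 and 0.413 to 0.732 CPM in siCtrl. Of the genes listed for mesenchymal or Schwann-like cells PRRX1 was at that constant throughout, while VIM stood at 229 to 250.3 CPM in siCtrl, FN1 at 19.4 to 24.1, COL1A1 at 6.74 to 8.62 and CD44 at 5.37 to 7.08.

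The libraries differed in a way that bears on every level below. Their depth, estimated from the smallest step between values, was 31.6 to 64.2 M reads, and the lowest value of any member rested on 149 reads. Listed genes held 64.3% to 65.8% of all reads in siCtrl, 61.3% to 63.3% in siMYCN and 56.8% to 61.4% in siHAND2. They held 58.4%, 51.4% and 44.3% in replicates 1, 2 and 3 of the combined knockdown, so these 3 libraries stand apart from one another (each knockdown against siCtrl, two-sided exact permutation p = 0.1, the smallest that 3 against 3 samples allow). The median gene sat at -0.14 (log2) in siHAND2 and -0.28 in the combined knockdown on the deposited scale. Each comparison was repeated after rescaling every sample by its median ratio, which put those medians at 0.01 and 0.04, and such values are called rescaled.

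In siCtrl the 31 transcripts covered a wide range once divided by the length of the canonical transcript. ACLY, which makes cytosolic acetyl-CoA from citrate, was the highest at 173 ± 7.18 CPM per kb (SD, n = 3). SCD (123 ± 6.76), FDPS (120 ± 7.28) and ACAT2 (104 ± 6.03 CPM per kb) followed, and the ranges of SCD and FDPS overlapped. INSIG2 (1.51 ± 0.0823) and TM7SF2 (2.54 ± 0.334 CPM per kb) were the lowest, and their ranges did not overlap.

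Most of the sterol enzymes were lower after HAND2 knockdown, few of them and several fatty acid enzymes after MYCN knockdown, and most of both groups after the combined knockdown. These are whole-culture RNA samples, in which fewer cells of a type and less RNA per cell cannot be told apart. In siMYCN 2 members were called higher and 6 lower, a call being a limma adjusted p under 0.05 over all tested genes, where 33.7% of all genes were called (17.4% higher and 16.3% lower). In siHAND2 2 members were called higher and 19 lower (all genes 42.7%, being 12.3% and 30.4%), and in the combined knockdown 2 higher and 25 lower (67.4%, being 17.4% and 50.1%). The median log2 fold change of the 31 was -0.08, -0.51 and -0.89, beside all-gene medians of 0.01, -0.14 and -0.28. After rescaling the counts were 3 higher and 9 lower with siMYCN, 3 and 18 with siHAND2, and 6 and 21 with both siRNAs. Of all genes 47.9% (25.4% higher, 22.5% lower), 50.8% (25.9%, 24.9%) and 70.7% (37.7%, 33.0%) were then called. The rescaled medians of the members were -0.07, -0.35 and -0.54. These 3 comparisons share the siCtrl samples, so their values are set side by side without a measure of likeness.

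**Figure D1:**
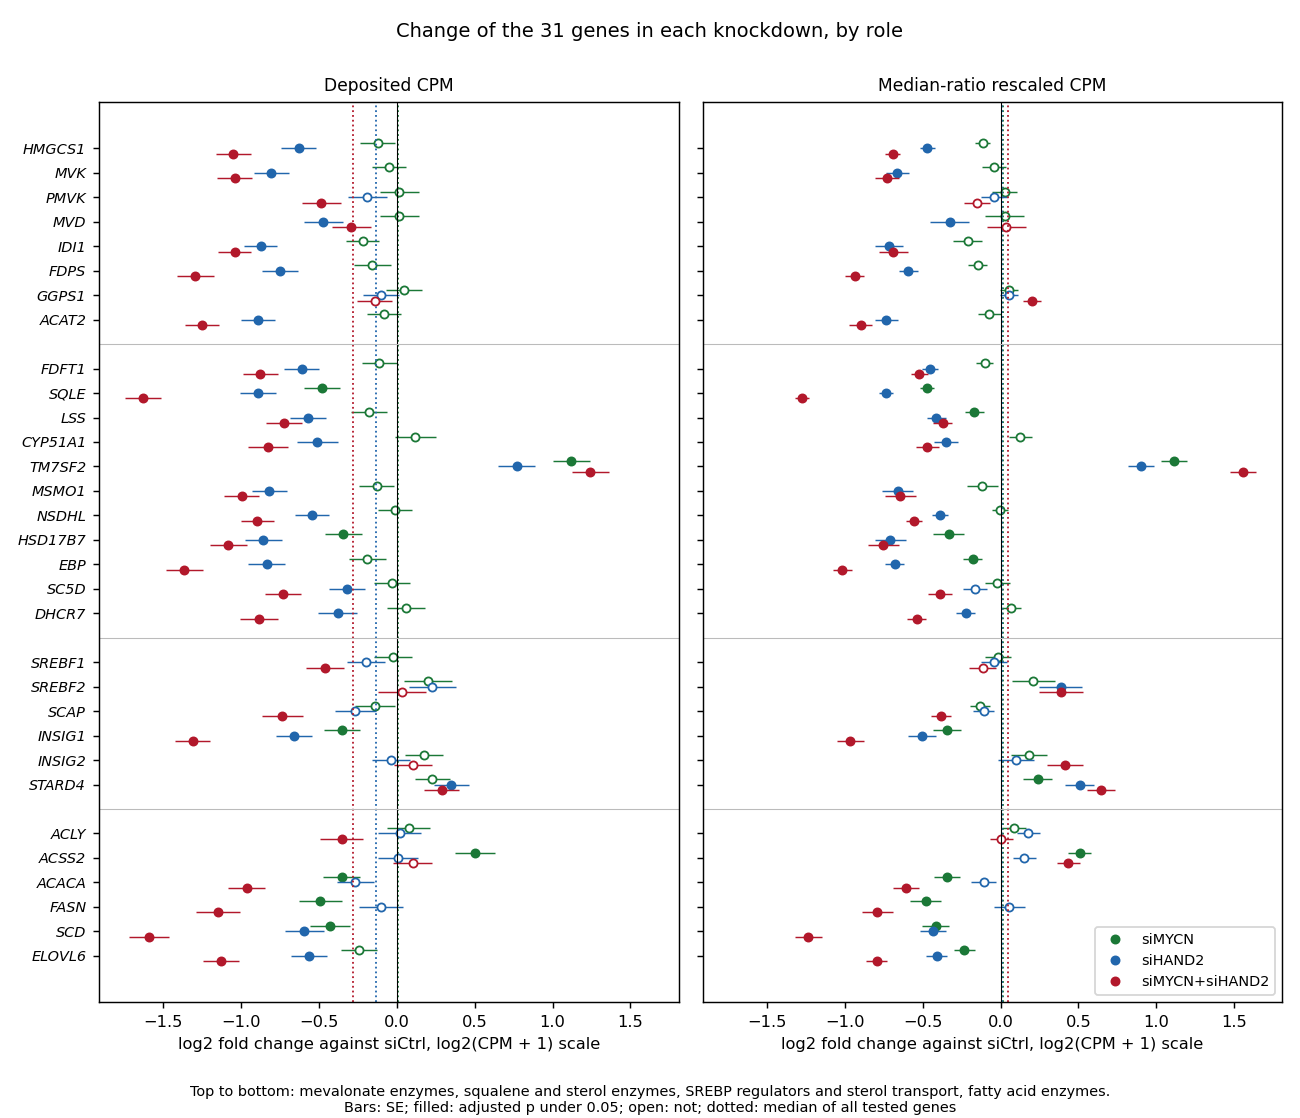
Log2 fold change of each of the 31 genes against siCtrl (horizontal axis, log2(CPM + 1) scale) in siMYCN (green), siHAND2 (blue) and the combined knockdown (red), on the deposited scale (left) and after rescaling (right). Bars are standard errors, filled points have a limma adjusted p under 0.05, dotted lines are medians of all tested genes. The blue and red points of most sterol enzymes lie left of the green ones, TM7SF2 lies right in all 3 (1.12, 0.77 and 1.24 on the deposited scale).

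Most of the 8 mevalonate enzymes were lower in siHAND2 and in the combined knockdown. In siMYCN limma called 0 of 8, and 0 had an unadjusted p under 0.05 (after rescaling 0 were called and 3 had an unadjusted p under 0.05, all negative). HMGCS1, IDI1 and FDPS were called lower in siMYCN when rescaling was combined with the replicate block (limma adjusted p = 0.0474, 0.0232 and 0.0252) and when only the compared groups were fitted (0.0374, 0.00551 and 0.0256). In siHAND2 6 of 8 fell, all but PMVK (-0.19 ± 0.12 SE) and GGPS1 (-0.10 ± 0.11), which respectively phosphorylates mevalonate phosphate and makes geranylgeranyl diphosphate, and the median was -0.69. In the combined knockdown 7 of 8 fell and the median was -1.04. Of all genes 16.3%, 30.4% and 50.1% were called lower in siMYCN, siHAND2 and the combined knockdown. The summed level of the 8 genes was 649 ± 28.2 CPM (SD, n = 3) with siCtrl, 596 ± 2.95 with siMYCN, 393 ± 5.33 with siHAND2 and 307 ± 38.2 with both siRNAs, which is 92.0%, 60.6% and 47.3% of siCtrl (92.6%, 67.7% and 60.5% after rescaling).

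HMGCS1, the synthase that makes HMG-CoA (hg19 chr5:43287572-43313614, - strand), stood at 180.4, 176 and 181 CPM in the siCtrl samples, 168, 162 and 163 with siMYCN, 116, 116 and 114 with siHAND2, and 97.9, 84.8 and 76.5 with both siRNAs. The 4 groups did not overlap and stepped down in that order. HMGCS1 fell by 0.63 ± 0.11 (SE) on the log2 scale in siHAND2 and by 1.05 ± 0.11 in the combined knockdown (limma adjusted p = 5.4e-05 and 6.8e-09), while its siMYCN value of -0.12 did not pass (adjusted p = 0.42). ACAT2, the thiolase that joins the first acetyl units (hg19 chr6:160182989-160200144, + strand), stood at 156, 151 and 169 CPM in siCtrl, 145, 158 and 146 with siMYCN, 81.9, 87.8 and 84.5 with siHAND2, and 72.8, 62.3 and 62.8 with both siRNAs. Its siMYCN samples overlapped siCtrl, and the other groups lay far below both. ACAT2 fell by 0.89 ± 0.11 in siHAND2 and by 1.25 ± 0.11 in the combined knockdown, and its listed span shares 615 bases with TCP1 on the other strand, a chaperonin gene at 608 CPM in siCtrl and 299.9 in the combined knockdown. Whether the counting used strand is not given in the sources used here, so the part of TCP1 reads in the ACAT2 value was not tested.

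MVK, which phosphorylates mevalonate, stood at 10.7, 11.2 and 12.4 CPM in siCtrl, 10.9, 11.1 and 10.9 with siMYCN, 6.17, 5.95 and 6.14 with siHAND2, and 6.02, 4.74 and 4.44 with both siRNAs. The siMYCN samples lay inside the siCtrl range and the siHAND2 and combined samples well under it. IDI1, which isomerizes the first isoprenoid unit, stood at 81.3, 72.0 and 80.9 CPM in siCtrl, 67.5, 64.9 and 67.9 with siMYCN, 39.5, 42.6 and 44.1 with siHAND2, and 39.8, 34.8 and 37.6 with both siRNAs. All siMYCN samples of IDI1 lay under siCtrl, but the difference of -0.22 ± 0.11 did not pass (limma adjusted p = 0.12, and 0.0284 or 0.0291 without replicate 1 or 3 of the combined knockdown, which share the estimate of spread). The siHAND2 and combined samples overlapped each other. FDPS, which makes farnesyl diphosphate, stood at 173, 158 and 178 CPM in siCtrl, 154, 149 and 153 with siMYCN, 100.4, 100.5 and 100.0 with siHAND2, and 83.0, 65.0 and 59.7 with both siRNAs. FDPS had the most uniform siHAND2 samples of this group and no overlap between groups. The falls were 0.81 for MVK, 0.88 for IDI1 and 0.75 for FDPS in siHAND2, and 1.04, 1.04 and 1.29 in the combined knockdown (limma adjusted p between 1.4e-05 and 5.4e-10). FDPS has 8 named pseudogenes, 1 of which (FDPSP2) is listed in the table, and IDI1 has 3, so reads may be shared with them.

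MVD, the decarboxylase of the mevalonate pathway, was at 11.4 to 13.1 CPM in siCtrl, 6.93 to 9.45 in siHAND2 and 8.24 to 11.2 in the combined knockdown. It fell by 0.47 ± 0.13 in siHAND2 and by 0.29 ± 0.13 in the combined knockdown (limma adjusted p = 0.04), where it was 0.04 after rescaling and was also no longer called without any 1 siCtrl sample or without replicate 2 of the combined knockdown (-0.20). PMVK fell by 0.48 in the combined knockdown and was at -0.15 after rescaling (limma adjusted p = 0.11). GGPS1, at 18.8 to 26.5 CPM over all samples, was the 1 mevalonate enzyme not called in any knockdown on the deposited scale. Its value in the combined knockdown was -0.14, and 0.20 after rescaling, where it was called higher (limma adjusted p = 0.006). Without replicate 1 of that group the deposited value was -0.26 and was called lower (limma adjusted p = 0.0187). The direction of GGPS1 and MVD in the combined knockdown therefore depends on the scale.

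**Figure D2:**
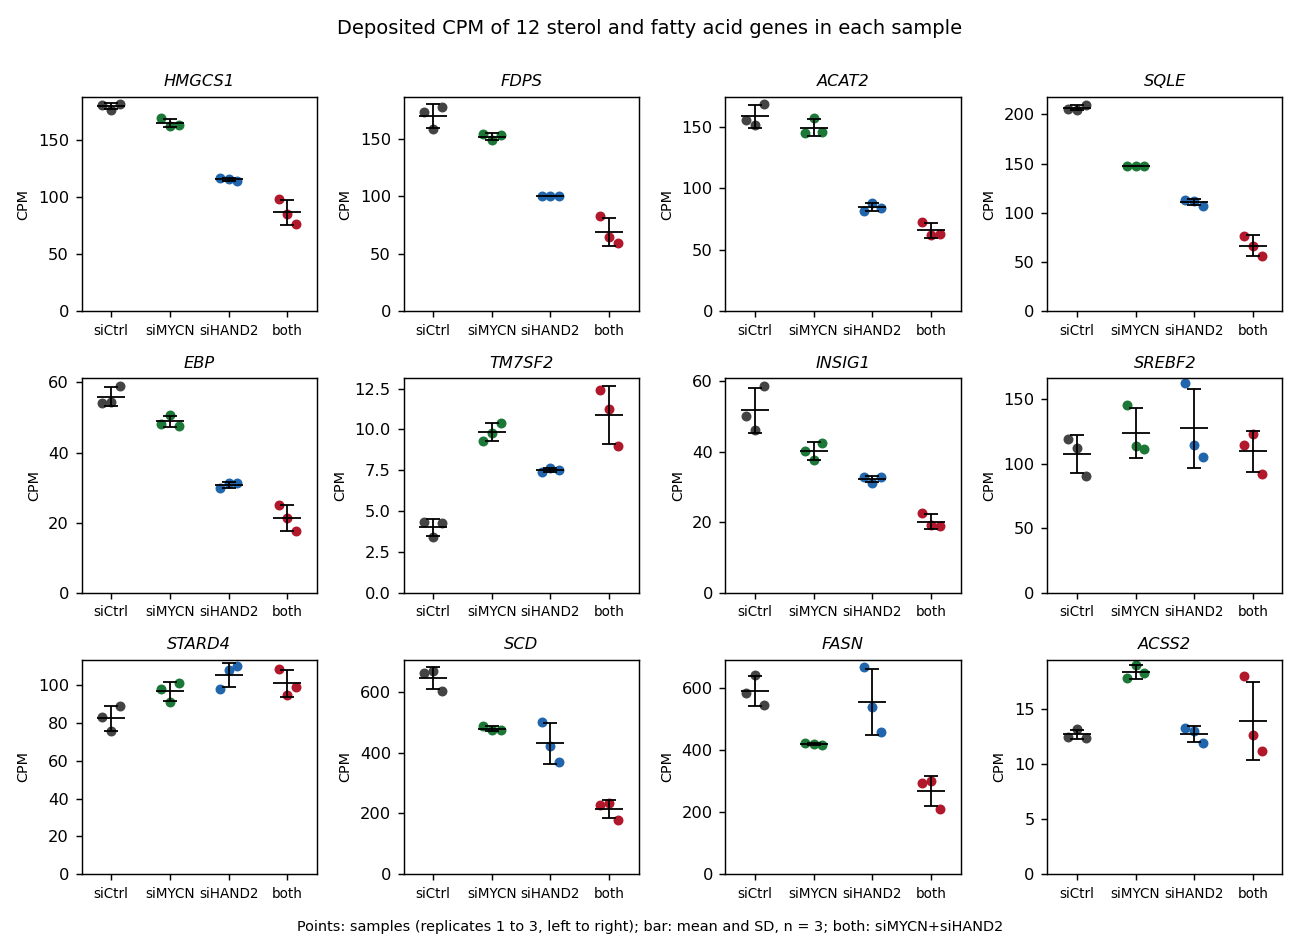
Deposited CPM (vertical axes, from 0) of 12 genes in each of the 12 samples, with the mean and SD of the 3 samples of a group. HMGCS1, FDPS, SQLE and EBP step down from siCtrl to the combined knockdown, TM7SF2 is lowest in siCtrl, and the SREBF2 groups overlap.

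The 11 enzymes from farnesyl diphosphate to cholesterol were lower in siHAND2 and in the combined knockdown, with 1 exception. In siHAND2 10 of 11 fell, by 0.32 to 0.89 on the log2 scale, and in the combined knockdown 10 fell, by 0.72 to 1.63. TM7SF2, a sterol reductase of the inner nuclear and endoplasmic reticulum membrane, rose in all 3 knockdowns. In siMYCN 2 of 11 fell (SQLE and HSD17B7) and TM7SF2 was the 1 that rose. Of all genes 16.3%, 30.4% and 50.1% were called lower in siMYCN, siHAND2 and the combined knockdown (22.5%, 24.9% and 33.0% after rescaling). The siMYCN count of falls was near that share. The summed level of the 11 genes was 891 ± 30.3 CPM (SD, n = 3) with siCtrl, 826 ± 13.8 with siMYCN, 569 ± 18.2 with siHAND2 and 443 ± 67.9 with both siRNAs, or 92.6%, 63.9% and 49.7% of siCtrl (93.3%, 71.3% and 63.3% after rescaling). Rescaling kept 10 lower calls in the combined knockdown and left 9 in siHAND2, where SC5D was at -0.17 (limma adjusted p = 0.091).

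SQLE, squalene epoxidase, stood at 206, 205 and 209.6 CPM in siCtrl, 148, 147 and 148 with siMYCN, 113, 112 and 107 with siHAND2, and 76.9, 66.8 and 56.1 with both siRNAs. The groups were separate and the siMYCN samples nearly identical. SQLE fell by 0.48 ± 0.11 (SE) with siMYCN, 0.89 ± 0.11 with siHAND2 and 1.63 ± 0.11 with both siRNAs (limma adjusted p = 0.002, 8.0e-07 and 4.7e-12), and by 0.47, 0.73 and 1.27 after rescaling. It had the largest fall of the 31 genes in the combined knockdown on both scales.

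EBP, the sterol isomerase also known as emopamil binding protein, stood at 54.2, 54.4 and 59.0 CPM in siCtrl, 48.1, 50.8 and 47.6 with siMYCN, 29.8, 31.2 and 31.4 with siHAND2, and 25.1, 21.2 and 17.5 with both siRNAs. No group overlapped another. The falls of 0.84 in siHAND2 and 1.36 in the combined knockdown passed, and the siMYCN value of -0.19 did not pass (limma adjusted p = 0.22) but did after rescaling (-0.18, limma adjusted p = 0.024). MSMO1, a sterol methyl oxidase, stood at 80.7, 70.8 and 87.3 CPM in siCtrl, 71.7, 71.6 and 74.0 with siMYCN, 41.9, 47.4 and 44.4 with siHAND2, and 42.0, 35.9 and 39.9 with both siRNAs. Its siMYCN samples lay within siCtrl, and siHAND2 and the combined knockdown lay below both and overlapped each other. HSD17B7, a reductase of the same demethylation steps, stood at 17.8, 16.3 and 19.7 CPM in siCtrl, 14.6, 13.4 and 13.7 with siMYCN, 8.42, 9.61 and 10.3 with siHAND2, and 9.47, 7.16 and 7.29 with both siRNAs. Its siMYCN samples lay below siCtrl, and the siHAND2 and combined samples lower still. HSD17B7 fell in siMYCN (-0.34 ± 0.12, limma adjusted p = 0.025), but the call was lost when siCtrl replicate 1 or 3 or siMYCN replicate 2 or 3 was left out (adjusted p 0.0651 to 0.135). The fall of HSD17B7 was 0.86 in siHAND2 and that of MSMO1 0.82, and 1.08 and 1.00 in the combined knockdown. HSD17B7 has a listed pseudogene, HSD17B7P2, with which reads may be shared.

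The other enzymes of this stretch moved less. FDFT1 (squalene synthase), LSS (which closes the rings) and NSDHL fell by 0.61, 0.57 and 0.54 in siHAND2 and by 0.88, 0.72 and 0.90 in the combined knockdown. CYP51A1, which demethylates lanosterol, fell by 0.51 and 0.83. SC5D and DHCR7, which act last, fell least in siHAND2 (0.32 and 0.38) and by 0.73 and 0.89 in the combined knockdown, and both siHAND2 calls were lost without siHAND2 replicate 3 (limma adjusted p = 0.14 and 0.0867). That of SC5D was also lost without siHAND2 replicate 2 or siCtrl replicate 1 or 3. In siMYCN the values of these 6 genes lay between -0.18 and 0.12 and none passed, except LSS after rescaling (-0.17, limma adjusted p = 0.034).

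The TM7SF2 gene (hg19 chr11:64879326-64883707, + strand) stood at 4.35, 3.40 and 4.27 CPM in siCtrl, 9.31, 9.78 and 10.4 with siMYCN, 7.41, 7.62 and 7.5 with siHAND2, and 12.4, 11.3 and 8.97 with both siRNAs. Every knockdown sample lay above every siCtrl sample, and the combined samples overlapped only siMYCN. TM7SF2 rose by 1.12 ± 0.12 (SE) with siMYCN, 0.77 ± 0.12 with siHAND2 and 1.24 ± 0.12 with both siRNAs on the log2 scale (limma adjusted p = 8.9e-08, 1.0e-05 and 1.2e-09), and by 1.11, 0.90 and 1.56 after rescaling. Its listed span shares 7 bases with VPS51 on the same strand, a gene at 52.7 CPM in siCtrl and 53.6, 54.8 and 41.9 in the 3 knockdowns. LBR, the other sterol reductase of the same step and a lamin B receptor, stood at 181 to 185 CPM in siCtrl, 144 to 156 in siMYCN, 114 to 124 in siHAND2 and 60.7 to 84.5 in the combined knockdown. LBR fell by 0.60 ± 0.12 in siHAND2 and by 1.33 ± 0.12 in the combined knockdown, and its siMYCN value of -0.30 did not pass (limma adjusted p = 0.053).

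The genes that control the pathway did not move as 1 group. INSIG1, which retains SCAP in the endoplasmic reticulum, stood at 50.2, 46.3 and 58.7 CPM in siCtrl, 40.3, 37.5 and 42.5 with siMYCN, 32.8, 31.1 and 32.7 with siHAND2, and 22.5, 19.1 and 18.9 with both siRNAs. No group overlapped another, and INSIG1 was the 1 gene of the 6 called lower in all 3 knockdowns in the main fit. It fell by 0.35 ± 0.11 (SE), 0.66 ± 0.11 and 1.31 ± 0.11 (limma adjusted p = 0.018, 4.3e-05 and 1.9e-10), and by 0.34, 0.50 and 0.97 after rescaling. The siMYCN call of INSIG1 was lost without siCtrl replicate 3, siMYCN replicate 1 or siMYCN replicate 2 (adjusted p 0.0531 to 0.145).

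SREBF2, which encodes SREBP2, stood at 119, 112 and 90.7 CPM in siCtrl, 146, 114 and 111 with siMYCN, 162, 114 and 105 with siHAND2, and 114, 123 and 91.9 with both siRNAs. All groups overlapped and none was called on the deposited scale (0.20, 0.23 and 0.03, limma adjusted p between 0.24 and 0.87). After rescaling SREBF2 was called higher with siHAND2 and with both siRNAs, both by 0.39 ± 0.14 (limma adjusted p = 0.032 and 0.022). SREBF1, which encodes SREBP1 (hg19 chr17:17714663-17740325, - strand), stood at 26.0, 27.2 and 28.2 CPM in siCtrl, 27.0, 23.6 and 29.6 with siMYCN, 26.2, 21.5 and 23.1 with siHAND2, and 22.9, 19.0 and 16.9 with both siRNAs. The combined knockdown alone lay below siCtrl, with a fall of 0.46 ± 0.12 (limma adjusted p = 0.0017) that was -0.12 and not called after rescaling (adjusted p = 0.24). Neither SREBP transcript was called lower in siHAND2 on either scale. Of the 19 sterol enzymes 16 fell there on the deposited scale and 15 on the rescaled one, beside 30.4% and 24.9% of all genes. The part of SREBP activity in those falls was not tested.

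SCAP, the escort, was at 70.9 to 78.9 CPM in siCtrl, 64.6 to 68.0 in siMYCN, 56.6 to 63.8 in siHAND2 and 34.3 to 55.1 in the combined knockdown. Each knockdown lay below siCtrl. The siMYCN value of -0.14 was called when only the compared groups were fitted (limma adjusted p = 0.0431), not in the main fit. SCAP was at -0.27 in siHAND2 (limma adjusted p = 0.1, and 0.0239 or 0.0115 without replicate 1 or 3 of the combined knockdown). It fell in the combined knockdown (by 0.74 ± 0.13, and by 0.38 after rescaling, limma adjusted p = 2.2e-05 and 1.1e-04). INSIG2, at 4.56 to 6.62 CPM over all samples, was not called on the deposited scale, and was higher in the combined knockdown after rescaling (0.41, limma adjusted p = 0.0055). STARD4, a soluble sterol carrier, was at 75.9 to 89.1 CPM in siCtrl, 91.4 to 101 in siMYCN, 98.3 to 110.2 in siHAND2 and 95.1 to 109 in the combined knockdown, each knockdown above siCtrl. Its siMYCN value of 0.23 did not pass (limma adjusted p = 0.12, and 0.0313 or 0.0295 without replicate 1 or 3 of the combined knockdown). STARD4 rose by 0.35 ± 0.11 in siHAND2 and 0.29 ± 0.11 with both siRNAs (limma adjusted p = 0.013 and 0.024), and by 0.24, 0.51 and 0.65 in all 3 after rescaling. The deposited call in siHAND2 was lost without siCtrl replicate 2, siHAND2 replicate 2 or siHAND2 replicate 3 (adjusted p 0.0564 to 0.078), and that in the combined knockdown without siCtrl replicate 1 or 2 (0.0621 and 0.12). STARD4 overlaps STARD4-AS1 by 372 bases on the other strand, a transcript that went from 10.9 CPM in siCtrl to 12.8, 17.2 and 23.65 in the knockdowns, and its part in the STARD4 values was not tested.

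The fatty acid enzymes were lower in different knockdowns from gene to gene. In siMYCN FASN, SCD and ACACA fell and ACSS2 rose, in siHAND2 SCD and ELOVL6 fell, and in the combined knockdown 5 of 6 fell. Of all genes 16.3%, 30.4% and 50.1% were called lower in these knockdowns (22.5%, 24.9% and 33.0% after rescaling). The siHAND2 count was near that share. The summed level of the 6 genes was 2160 ± 122 CPM (SD, n = 3) with siCtrl, 1832 ± 46.0 with siMYCN, 1887 ± 248 with siHAND2 and 1173 ± 228 with both siRNAs, or 84.8%, 87.4% and 54.3% of siCtrl (85.4%, 97.4% and 68.9% after rescaling).

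FASN, fatty acid synthase (hg19 chr17:80036214-80056106, - strand), stood at 583, 640.4 and 546 CPM in siCtrl, 421, 419 and 415 with siMYCN, 667, 536 and 458 with siHAND2, and 293, 299 and 211 with both siRNAs. The siMYCN and combined samples lay below siCtrl, and the siHAND2 samples spread across it. FASN fell by 0.49 ± 0.14 (SE) in siMYCN and 1.15 ± 0.14 in the combined knockdown (limma adjusted p = 0.0084 and 8.4e-08), and its siHAND2 value of -0.10 was not called (0.05 after rescaling). SCD, the desaturase that makes oleate, stood at 662, 668 and 604 CPM in siCtrl, 488, 474 and 473 with siMYCN, 502, 420.2 and 368 with siHAND2, and 228, 236 and 179 with both siRNAs. All knockdown samples lay below siCtrl and the combined samples below the rest. SCD fell by 0.43 ± 0.13, 0.59 ± 0.13 and 1.59 ± 0.13 (limma adjusted p = 0.012, 5.7e-04 and 4.8e-11), and by 0.42, 0.43 and 1.24 after rescaling.

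ACSS2, which makes acetyl-CoA from acetate (hg19 chr20:33462766-33515769, + strand), stood at 12.4, 13.2 and 12.4 CPM in siCtrl, 17.7, 19.0 and 18.2 with siMYCN, 13.3, 13.0 and 11.9 with siHAND2, and 17.9, 12.6 and 11.2 with both siRNAs. The siMYCN samples lay above siCtrl, siHAND2 overlapped it, and the combined samples spread from below siCtrl to the siMYCN level. ACSS2 rose by 0.50 ± 0.13 in siMYCN (limma adjusted p = 0.0034), and in the combined knockdown it was 0.10 and not called on the deposited scale but called higher after rescaling (0.43, adjusted p = 1.2e-04). ACACA, acetyl-CoA carboxylase, fell by 0.35 ± 0.12 in siMYCN (limma adjusted p = 0.024) and 0.96 ± 0.12 in the combined knockdown. The siMYCN call of ACACA was lost without any 1 siMYCN sample or without siCtrl replicate 1 or 2 (adjusted p 0.061 to 0.118). ACACA was not called in siHAND2 (-0.27, limma adjusted p = 0.072), but was with the replicate number as a block (0.0339), without siCtrl replicate 3 (-0.36, 0.043), and without replicate 1 or 3 of the combined knockdown (0.0376 and 0.0117). ELOVL6, which elongates palmitate, was at -0.24 in siMYCN (limma adjusted p = 0.11, and 0.0217 without replicate 3 of the combined knockdown), was called lower there after rescaling (-0.23, adjusted p = 0.011), which made 4 of 6 fatty acid enzymes lower, and fell by 0.56 in siHAND2 and 1.13 in the combined knockdown. ACLY was not called in either single knockdown, and its fall of 0.36 ± 0.14 in the combined knockdown (limma adjusted p = 0.026) became a value of 0.004 after rescaling, and -0.16 and not called without replicate 3 of that group. The call was also lost without siCtrl replicate 1 or 2 (adjusted p 0.0785 and 0.0602).

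**Figure D3:**
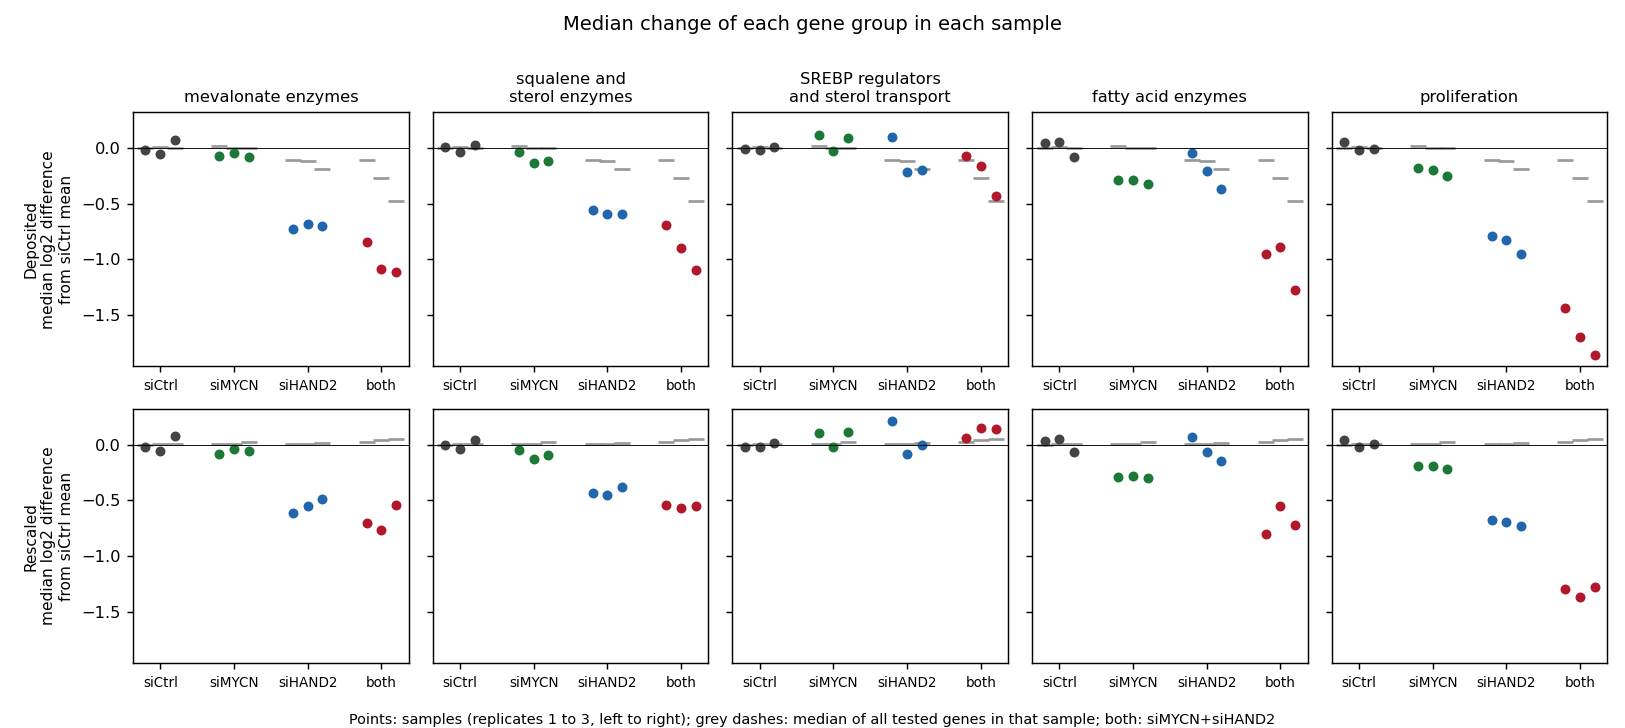
Median log2 difference from the siCtrl mean (vertical axis) over the genes of each group in each of the 12 samples, for the 4 groups of lipid genes and 8 proliferation genes, deposited (top) and rescaled (bottom). Grey dashes are the median of all tested genes in that sample. Sterol enzymes and proliferation genes lie well below the dashes in siHAND2 and the combined knockdown, fatty acid enzymes in siMYCN and the combined knockdown.

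Genes of cell division moved in the same samples as the sterol enzymes. A list of 8 proliferation genes summed to 1286 ± 69.3 CPM (SD, n = 3) with siCtrl, from 1221 to 1359, and to 1072 to 1182 with siMYCN, 651 to 728 with siHAND2 and 332 to 463 with both siRNAs. Of the 8, 1 was lower in siMYCN and 8 in each of the other knockdowns, with medians of -0.22, -0.85 and -1.68 (-0.21, -0.69 and -1.33 after rescaling, with 4, 8 and 8 lower). Beside the counts of this paragraph, 16.3%, 30.4% and 50.1% of all genes were called lower (22.5%, 24.9% and 33.0% after rescaling). The shares called higher were 17.4%, 12.3% and 17.4% (25.4%, 25.9% and 37.7% after rescaling). Of 10 genes listed for mesenchymal or Schwann-like cells 5 were tested, of which limma called 1 higher and 0 lower in siMYCN (1 lower at an unadjusted p under 0.05), 0 higher and 4 lower in siHAND2, and 1 higher and 4 lower in the combined knockdown (1 and 1, 0 and 4, and 1 and 3 after rescaling). Their sum was 264 to 293 CPM with siCtrl, 220.5 to 270.4 with siMYCN, 125 to 153 with siHAND2 and 73.5 to 133 with both siRNAs. Of 11 adrenergic neuroblastoma genes 10 were tested, of which 7, 4 and 4 were higher and 0, 3 and 3 lower (8, 6 and 7 higher and 0, 3 and 3 lower after rescaling). The part of these lists, and of the falling share of reads in listed genes, in the lipid gene values was not tested.

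The single knockdowns were compared directly. The siCtrl samples do not enter this difference, but they enter the estimate of spread behind its test. In siMYCN 19 of the 31 genes were called higher than in siHAND2 and 1 lower, where 35.0% of all genes were called (26.1% higher and 8.98% lower), and the median difference was 0.39 beside 0.13 for all genes. The difference was positive for all 19 sterol enzymes and called for 16 of them (all but PMVK, GGPS1 and SC5D). It was largest for ACAT2 (0.81 ± 0.11 SE), MVK (0.76 ± 0.11), MSMO1 (0.69 ± 0.11), IDI1 (0.65 ± 0.11) and EBP (0.65 ± 0.12; limma adjusted p 2.2e-06 to 1.1e-04). SC5D (0.29, limma adjusted p = 0.056) was called with the replicate number as a block (0.0278), without siHAND2 replicate 1 (0.018), and without replicate 1 or 3 of the combined knockdown (0.0254 and 0.0121).

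FASN was the 1 gene lower in siMYCN than in siHAND2 (-0.39 ± 0.14, limma adjusted p = 0.034), and this call was lost without any 1 siMYCN sample or without siHAND2 replicate 1 or 2 (adjusted p 0.0717 to 0.228). It was -0.54 after rescaling (limma adjusted p = 6.1e-04), where ACACA (-0.24) and STARD4 (-0.27) were lower as well. ACSS2 (0.50 ± 0.13), ELOVL6 (0.32 ± 0.12) and INSIG1 (0.31 ± 0.11) were called higher in siMYCN than in siHAND2. The ELOVL6 call was lost without any 1 siMYCN sample or without siHAND2 replicate 2 or 3, and the INSIG1 call without any 1 siMYCN or siHAND2 sample, without siCtrl replicate 1 and after rescaling (0.16). TM7SF2 was higher in siMYCN by 0.35 ± 0.12 (limma adjusted p = 0.025). That call was lost after rescaling (0.21), without siMYCN replicate 2 or 3, and without any 1 siHAND2 sample, and that of LSS (0.39) without siMYCN replicate 1. INSIG2 (0.21) was called without siHAND2 replicate 1 (0.36, limma adjusted p = 0.0316). After rescaling 17 of the 31 genes were called higher and 3 lower (all genes 44.5%, being 22.4% and 22.2%), and 15 of the 19 sterol enzymes were among the higher ones.

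**Figure D4:**
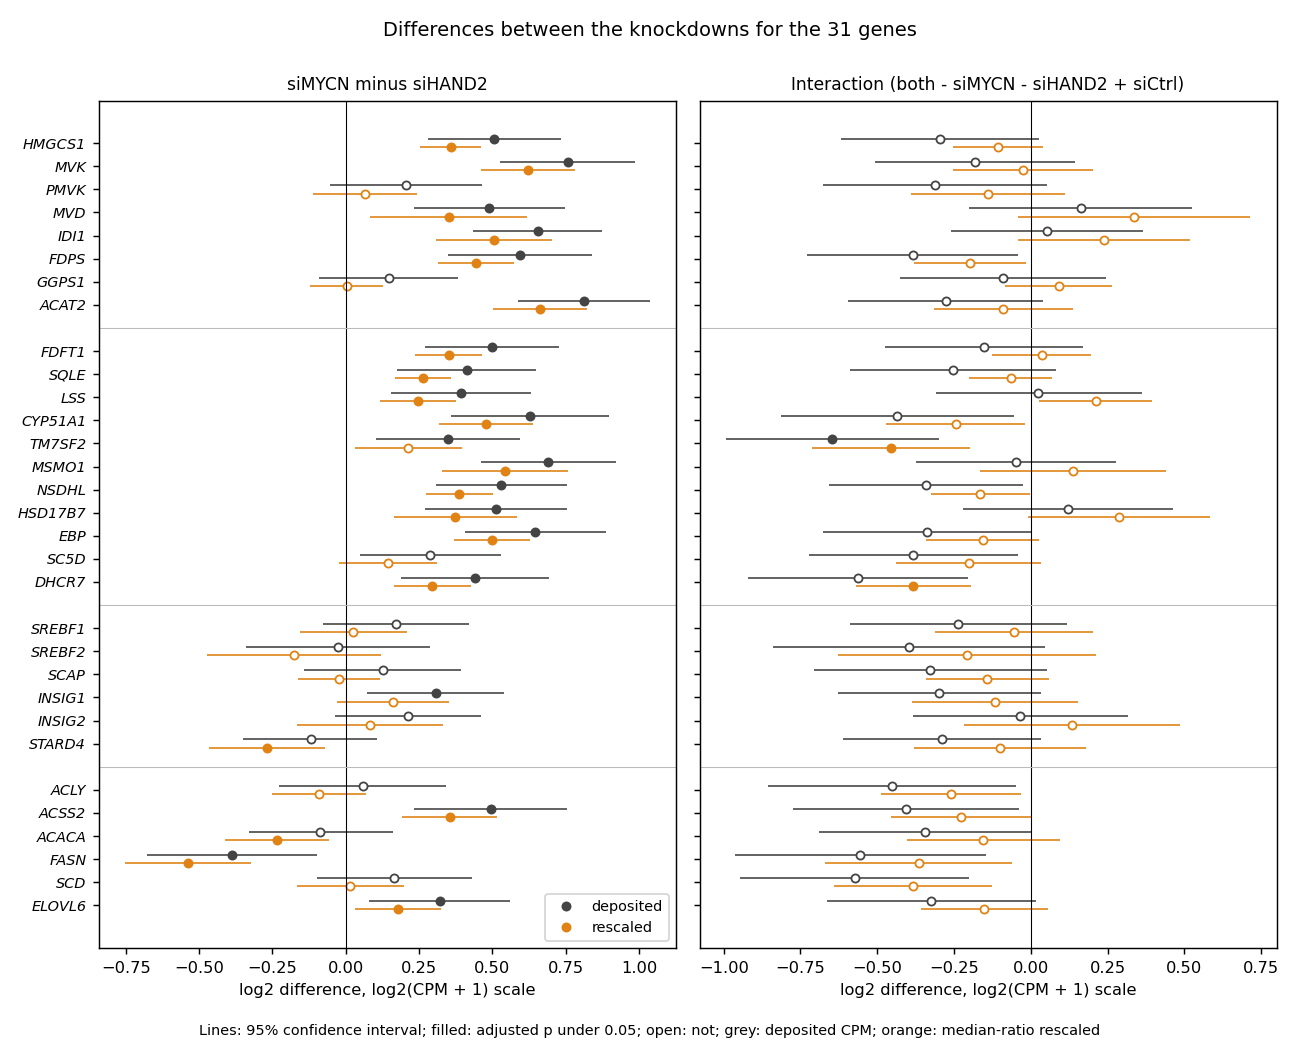
Left, the log2 difference of siMYCN minus siHAND2 for each of the 31 genes; right, the interaction (the combined change less both single changes), on the deposited (grey) and rescaled (orange) scales. Lines are 95% confidence intervals, filled points have a limma adjusted p under 0.05. All 19 sterol enzymes lie right of 0 on the left, and TM7SF2 (-0.65) is filled on the right on both scales.

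The interaction asks whether the combined change differs from the sum of both single changes. On the deposited scale 0 members were called positive (0 also at an unadjusted p under 0.05) and 1, TM7SF2, negative, where limma called 4.01% of all genes (0.355% positive and 3.65% negative). The TM7SF2 value was -0.65 ± 0.17 (SE, limma adjusted p = 0.027), its rise in the combined knockdown of 1.24 standing against 1.89 for the sum of the single rises. It was -0.46 after rescaling (limma adjusted p = 0.04), and the call was lost without siCtrl replicate 2, siMYCN replicate 2, siMYCN replicate 3 or siHAND2 replicate 2 (adjusted p 0.0673 to 0.0957). For the other members the interval is the result: SQLE was at -0.25 (95% interval -0.59 to 0.08), IDI1 at 0.05 (-0.26 to 0.36) and SCD at -0.57 (-0.95 to -0.20, limma adjusted p = 0.072).

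Of the 31 interaction values 27 were negative with a median of -0.31, beside -0.18 for all genes, and 10 had an unadjusted p under 0.05. After rescaling the median was -0.14 beside -0.01, and TM7SF2 and DHCR7 (-0.38 ± 0.09, limma adjusted p = 0.019) were called, where 6.14% of all genes were called (1.67% positive and 4.47% negative). In the fit with a replicate block 4 members were called negative (TM7SF2, DHCR7, SCD and FASN, 9.12% of all genes). Without replicate 1 of the combined knockdown, the library with the highest share of reads in listed genes of its group, 19 members were called negative (33.6% of all genes), and without siHAND2 replicate 3 the number was 4 (5.05%). After rescaling without replicate 1 it was 3 (7.16%).

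Genes around the 2 pathways were described from 7 lists of 100 symbols, of which 93 were tested. In siMYCN 6 were called higher and 16 lower, in siHAND2 4 and 42, and in the combined knockdown 5 and 67, with medians of -0.02, -0.28 and -0.53. Of all genes 17.4% were called higher and 16.3% lower in siMYCN, 12.3% and 30.4% in siHAND2, and 17.4% and 50.1% in the combined knockdown, so the siMYCN falls were near the share of all genes. After rescaling the counts were 21 and 25, 9 and 39, and 17 and 47. The shares of all genes were then 25.4% and 22.5%, 25.9% and 24.9%, and 37.7% and 33.0%. Both siMYCN counts were near those shares, and the balance of rises and falls depends on the scale. A fit with a term for the replicate number had 13 higher in siMYCN. Counts of the single lists below stand beside these same shares of all genes. Of the 9 genes of SREBP processing and turnover 3, 3 and 5 fell in siMYCN, siHAND2 and the combined knockdown (3, 2 and 5 after rescaling). ERLIN1, which helps degrade sterol-sensing proteins, stood at 31.8 to 33.0 CPM in siCtrl and 7.48 to 8.76 in the combined knockdown, with no overlap, and fell by 0.68, 0.93 and 1.90.

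Among 10 partners and accessory proteins of the sterol enzymes 3, 7 and 7 fell (4, 6 and 7 after rescaling). TMEM97, a sterol-binding membrane protein, fell by 0.54, 0.56 and 1.5. Among 12 genes of the isoprenoid branch 3, 4 and 10 fell (4, 4 and 6 after rescaling), and COQ2 and PDSS1 of ubiquinone synthesis fell in all 3 knockdowns, by 0.50, 0.86 and 1.41 and by 0.70, 0.60 and 1.28.

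Sterol uptake and efflux genes went both ways. Of 14 tested 1, 5 and 9 fell and 1, 2 and 2 rose, and after rescaling 2, 5 and 4 fell and 5, 2 and 2 rose. SCARB1, a lipoprotein receptor, stood at 37.3, 41.7 and 37.3 CPM in siCtrl, 17.5, 17.8 and 18.3 with siMYCN, 26.4, 23.1 and 23.6 with siHAND2, and 12.6, 9.48 and 8.56 with both siRNAs. No group of SCARB1 overlapped another, and it fell by 1.07, 0.65 and 1.84. ABCG1, a sterol exporter, was low (1.18 to 1.57 CPM in siCtrl) and rose by 0.87 in siHAND2 and 0.80 in the combined knockdown. ABCG4, of the same family, stood lower still, at 0.551 to 0.799 CPM in siCtrl. It reached the mean of 1 CPM needed for testing only through the knockdown samples. Its values of 0.51, 0.37 and 0.57 are therefore tied to that filter.

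Of 19 tested genes of fatty acid elongation, desaturation and activation 2 fell with siMYCN, 13 with siHAND2 and 14 with both siRNAs. After rescaling 3, 13 and 12 fell. HACD1, a dehydratase of the elongation cycle, fell by 1.09 in siHAND2 and 1.21 in the combined knockdown and was at -0.02 in siMYCN. SCD5, the other desaturase, rose by 0.55 in siMYCN, where SCD fell. Of 11 tested genes of acetyl-CoA and NADPH supply 3, 5 and 10 fell (5, 4 and 6 after rescaling), among them ACSS1, the mitochondrial counterpart of ACSS2, by 0.83, 0.45 and 1.27. Of 18 genes of fatty acid oxidation 1, 5 and 12 fell and 3, 1 and 1 rose, and after rescaling 4, 5 and 7 fell and 5, 2 and 5 rose. HADH, which acts in mitochondrial oxidation, fell by 0.57, 0.81 and 1.55, and CPT1C, the neuronal carnitine palmitoyltransferase, rose by 0.66, 0.56 and 0.58.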

How the data were processed

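Per the submitters' processing notes, the authors aligned reads with STAR 2.5.1 and used Partek (version not given) on hg19; the annotation, counting settings and use of strand are not given in the sources used here. The deposited values are CPM per gene, a unit given by the name of the authors' file. The column sums reach only 44.3% to 65.8% of the total of that unit. They were taken as the share of reads in listed genes, and the estimated depth rests on the same unit. A constant of 0.0001 was added to each, judging by the lowest value, and 6389 genes sit at that constant in all 12 samples. Values gave whole reads too seldom to be treated as counts, so no count test was run. Depth was 31.6 to 64.2 M reads. Precision is limited by the 3 samples per group and also depends on the scale. The SE of the members, each knockdown against siCtrl, was 0.107 to 0.153 as deposited and 0.044 to 0.139 after rescaling.

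From the 12 samples in 4 groups, log2(CPM + 1) of 12680 genes (mean CPM 1 or more) was fitted with limma 3.58.1 (trend, R 4.3.3, 8 residual degrees of freedom). 5 comparisons were made: each knockdown against siCtrl, siMYCN against siHAND2, and the interaction. p-values were adjusted by Benjamini-Hochberg over all tested genes, and fold changes on this scale understate those of low genes. Rescaling divided each sample by its median ratio over genes at a mean CPM of 5 or more. The fit was tested on simulated data. Same-numbered samples deviated together in siCtrl and siMYCN (correlations 0.147 to 0.44) and in siMYCN and siHAND2 (0.137 to 0.33). They may be paired there. In siCtrl and siHAND2 the correlations ran from -0.074 to 0.423, and in pairs with the combined knockdown from -0.192 to 0.407. The numbers that open the sample labels run through all 4 groups of a replicate number before the next. Pairing is therefore possible in every pair of groups, and these values do not settle it. The main fit ignored any such pairing, and the replicate number entered only as the block among the alternatives. Alternatives were other pseudocounts, filters, scalings, fits without trend, the replicate block and leaving out each sample. Values of every sample are given for the members with the 5 largest called changes of each comparison (mean CPM of 5 or more), any with a called interaction, and SREBF1, SREBF2, INSIG1, HMGCS1, SQLE, FASN and SCD. Of the related lists at most the 2 largest called rises and falls per knockdown are named. Members and lists were chosen with earlier results of these data known.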

Additional observations from a re-analysis of the deposited data

Results flagged for a closer look

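TM7SF2 was the 1 gene of the 31 whose combined change differed from the sum of its single changes by the limma interaction test on the deposited scale, with a value of -0.65 ± 0.17 (SE, log2, adjusted p = 0.027). It rose by 1.12 with siMYCN, 0.77 with siHAND2 and 1.24 with both siRNAs, and all 9 knockdown samples lay above all 3 siCtrl samples. The value was -0.46 after rescaling, where DHCR7 was called too (-0.38, limma adjusted p = 0.019). MYCN was lower with both siRNAs than with siMYCN alone. After rescaling HAND2 was higher with both siRNAs (77.5 to 92.2 CPM) than with siHAND2 alone (53.9 to 71.7). The losses of the targets were therefore not equal. The TM7SF2 call was lost with no filter (adjusted p = 0.18), after rescaling without replicate 3 of the combined knockdown (0.0716), and without siCtrl replicate 2, siMYCN replicate 2 or 3, or siHAND2 replicate 2 (0.0673 to 0.0957).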

How the results depend on the processing

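All 31 genes kept their direction and call in all 5 comparisons with a pseudocount of 0.1, a mean CPM of at least 5, or no trend. Below, members are the 31 genes and related genes the 93. The share of all genes called moves with the setting too, in siMYCN from 33.7% as deposited to 47.9% after rescaling. Counts below are given without that share and describe the settings, not the members against other genes. Signs in the combined knockdown turned for MVD, GGPS1 and ACLY: after rescaling 0.035, 0.202 and 0.004, with the block added 0.035, 0.202 and 0.004, scaled to listed genes 0.027 and 0.195 for MVD and GGPS1, after rescaling without replicate 3 of the combined knockdown 0.215 and 0.086 for GGPS1 and ACLY, and without its replicate 1 0.03 and 0.19 for MVD and GGPS1. Both settings that rescale and leave out a sample were added after seeing the data. The cause was not tested.

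Rescaling gave, for siMYCN, 21 related genes higher and 25 lower, for siHAND2 9 related higher, for the combined knockdown 6 members and 17 related higher, for siMYCN against siHAND2 3 members lower and for the interaction 2. Scaling to listed genes gave 24 and 9 related higher in the single knockdowns, 6 members and 17 related higher in the combined one, and an interaction count of 2. Fitting only the compared groups gave 13 members lower in siMYCN with 21 related higher and 30 lower, and 1 member higher in the combined knockdown. With no filter 2 members were lower in siMYCN, 0 in siMYCN against siHAND2 and 0 in the interaction by limma. A mean CPM of at least 5 left 2 related genes higher in siHAND2 and 2 in the combined knockdown, since fewer genes were tested.

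With the replicate number as a block 13 related genes were higher in siMYCN and the interaction had 4 members, and 5 member calls were gained and 0 lost; 8 of 12 samples correlated best with a sample of their own number. Rescaling with the replicate block gave 12 members lower in siMYCN, 22 related higher and 26 lower, 4 members and 13 related higher in siHAND2, 6 members and 19 related higher in the combined knockdown, 3 members lower in siMYCN against siHAND2 and 2 in the interaction. Rescaling without replicate 3 of the combined knockdown gave 12 members lower, 21 related higher and 27 lower in siMYCN, 4 members and 10 related higher in siHAND2, 6 members and 18 related higher and 42 related lower in the combined knockdown, and 3 members lower in siMYCN against siHAND2. Rescaling without its replicate 1 gave 10, 21 and 26, then 5 and 9, then 6 and 17, then 3, and 3 in the interaction.

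Leaving out each sample gave 2 to 3 members higher and 3 to 8 lower in siMYCN (3 without siMYCN replicate 2), 1 to 2 and 17 to 21 in siHAND2, 1 to 2 and 23 to 26 in the combined knockdown, 16 to 20 and 0 to 1 in siMYCN against siHAND2, and 0 higher and 0 to 19 lower in the interaction. Related genes ran from 4 to 18 higher and 14 to 24 lower in siMYCN, 2 to 5 and 29 to 55 in siHAND2, and 5 to 7 and 60 to 76 in the combined knockdown.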
